A study of Arabidopsis thaliana with 10 samples.

Results

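In light-grown Arabidopsis thaliana seedlings on norflurazon, 188 nuclear genes differed from wild type in opposite directions in the gun1-9 mutant and in the MORF2 overexpression line MORF2OX. They were chosen from these measurements themselves, out of 33602 genes listed. A gene was eligible if its mean level was at least 5 CPM (read counts scaled to the size of the library) in gun1-9 NF, MORF2OX NF or Col6-3 NF, where NF stands for norflurazon. It became a member if 1 of the lines had at least 1.4 times the Col6-3 NF mean and the other had at most that mean divided by 1.4. Of 15198 eligible nuclear genes, 78 (0.513%) were higher in gun1-9 and lower in MORF2OX, and 110 (0.724%) were lower in gun1-9 and higher in MORF2OX. The rule left out 2 genes by name, MORF2 among them. By the same limits 1693 genes were higher in both lines and 1191 were lower in both. Because the levels in gun1-9 NF, MORF2OX NF and Col6-3 NF chose the members, their differences between those groups are given as a description and were not tested as findings.

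RNA was measured by sequencing in whole seedlings, with 2 libraries in each of 5 groups. These were gun1-9, MORF2OX and MORF2OX(w) on 5 µM norflurazon, the wild type Col6-3 on 5 µM norflurazon (Col6-3 NF), and untreated Col6-3 (Col6-3 LS). All 3 lines are in the Col6-3 background, and seedlings were 5 days old, raised in 24 h light of 100 µmol per square metre and second at 22 °C. More than 100 plants were pooled for a library. The overexpression lines are described as differing in the strength of their phenotype. The labels give neither the lesion of gun1-9 nor the promoter or the number of independent transformants behind the overexpression lines, and no untreated library of any line was used here. MORF2 itself had 123 and 117 CPM in gun1-9 NF, 7970 and 7244 CPM in MORF2OX NF, 4506 and 5085 CPM in MORF2OX(w) NF, 102 and 109 CPM in Col6-3 NF, and 86.1 and 95.6 CPM in Col6-3 LS.

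Norflurazon blocks carotenoid synthesis, so that chloroplasts of seedlings in light are destroyed by photo-oxidation and many nuclear genes for photosynthesis are repressed. GUN1 is a plastid pentatricopeptide repeat protein needed for that repression, and mutants in it, called genomes uncoupled, keep some of those nuclear genes on. MORF2 is a plastid factor of RNA editing, and its overexpression has also been described as giving a genomes uncoupled phenotype. Mitochondria send signals to the nucleus too: when respiration is impaired, NAC transcription factors tethered to the endoplasmic reticulum are released and bind the mitochondrial dysfunction motif in promoters such as that of the alternative oxidase gene AOX1A.

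The letters of that motif were found at a higher share of the starts of the 78 genes higher in gun1-9 and lower in MORF2OX than of all annotated genes. The share among eligible genes, or among all genes higher in gun1-9, was not counted. The motif was searched in the form CTTG, any 5 bases, CA, any base, G, on both strands from 250 bases before to 50 bases after each annotated start. It was present in 12 of 78 genes higher in gun1-9 and lower in MORF2OX (15.4%). It was present in 1 of 110 genes lower in gun1-9 and higher in MORF2OX (0.909%) and in 709 of 32834 genes of the annotation (2.16%). All 5 members that stand on a list of 24 mitochondrial dysfunction genes, AOX1A, HSP23.6-MITO, AT5G51440, AT5G09570 and UGT74E2, held it. These 5 are among the 12, and genes listed for this response may have been tied to the motif beforehand, so they are no separate support. The sites of these 5 genes, and that of AT3G58150, which encodes a protein of the OPA3 family, are shown because they lead the values below. Sequences are from RefSeq, build TAIR10.1, and are written 5′ to 3′ on the named strand, with the motif in capitals and 8 bases on either side.
AOX1A, chr3:7906510-7906538, plus strand: atctagctCTTGGCGACCACGcaagtatc
AOX1A, chr3:7906537-7906565, plus strand: tcttccatCTTGCTCTCCAAGaaaaatct
HSP23.6-MITO, chr4:12916872-12916900, plus strand: tcacttagCTTGGGAGCCACGgatctcta
AT5G51440, chr5:20891045-20891073, plus strand: ttattttaCTTGGAGACCACGcagttcta
AT5G09570, chr5:2970503-2970531, minus strand: atattcccCTTGCCCGTCACGtttcttgc
UGT74E2, chr1:1704805-1704833, minus strand: ccgcacatCTTGGTCGCCACGgaacatag
AT3G58150, chr3:21534140-21534168, minus strand: aaaatttcCTTGCACGGCAAGgtctgatt
The first motif base lay 46 bases before the annotated start in HSP23.6-MITO, 110 before it in AT5G51440 and 25 before it in AT3G58150. In AOX1A the first match began 3 bases before the start and ran across it, while the second began 24 bases after it. In AT5G09570 and UGT74E2 the match began 13 bases after the start. The other 6 members with the motif were NAC044, AT2G35480, AT2G41730, AT4G08555, AT5G24640 and AT2G07698. In AT2G07698, whose counts are uncertain as given below, the open base before the last G was G, while the sites shown have A or C there. With a window of 500 bases before the start and none after it, chosen after these values were seen, the shares were 11.5%, 1.82% and 3.41%. A match describes letters and does not show binding.

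Other motifs differed less between the sets in the same 300-base window. The evening element AAATATCT, known from clock-regulated genes, was in 14.1% of the 78 genes, 6.36% of the 110 genes and 5.29% of all annotated genes. In the 500-base window its shares were 11.5%, 8.18% and 8.46%. The heat shock element core GAANNTTC was in 17.9%, 16.4% and 11.3%, the G-box CACGTG in 12.8%, 9.09% and 6.9%, the as-1 core TGACG in 29.5%, 24.5% and 22.8%, and the W-box core TTGAC in 61.5%, 50.9% and 50%. The as-1 core overlaps the W-box core where the letters TTGACG occur.

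**Figure D1:**
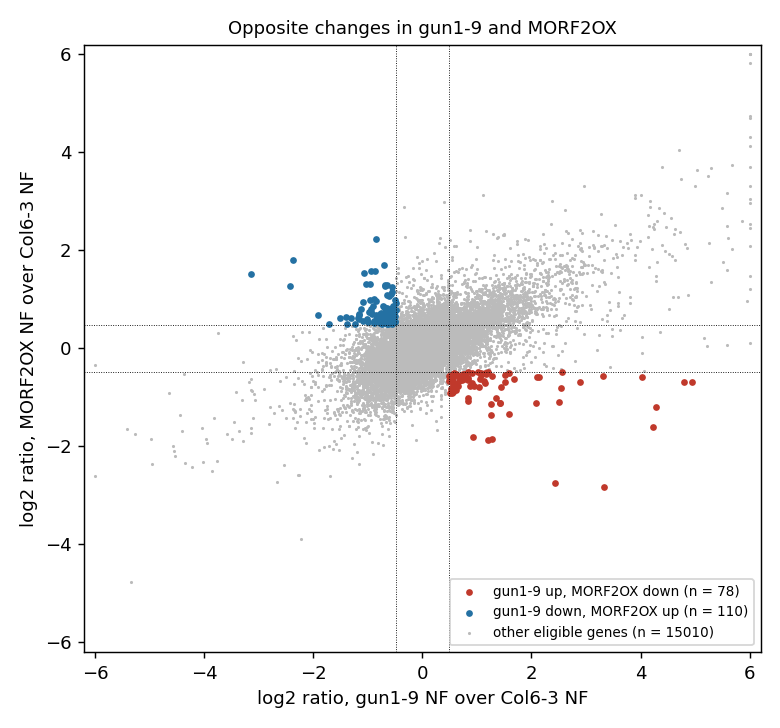
Log2 ratio of mean CPM in gun1-9 NF over Col6-3 NF (x axis) against that in MORF2OX NF over Col6-3 NF (y axis) for 15198 eligible nuclear genes; genes beyond the axis range are drawn at its edge and dotted lines mark a ratio of 1.4 in either direction. The 78 and 110 members occupy the 2 corners of opposite sign, while the 1693 and 1191 genes that moved alike lie in the other corners.

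Sizes of the differences from Col6-3 NF, which the rule itself used, are given as a description. Among the 78 genes, the size of the ratio to Col6-3 NF had a median of 1.97 (range 1.41 to 30.6) in gun1-9 and 1.59 (1.4 to 7.13) in MORF2OX, and it was larger in gun1-9 for 55 genes. Among the 110 genes, the medians were 1.66 (1.4 to 8.81) in gun1-9 and 1.57 (1.42 to 4.69) in MORF2OX, and the size was larger in gun1-9 for 61 genes. A ratio of at least 2-fold in both lines was seen in 14 of the 78 and 5 of the 110. Both libraries of both lines lay outside the range of the Col6-3 NF libraries in 74 of 78 and 102 of 110 genes. The rule chose members by the means of these same libraries, and no such share among all eligible genes was counted. Nothing is therefore read from these sizes and counts. In these bulk samples, fewer cells of a type and less RNA per cell cannot be told apart.

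Membership depended on single libraries. With the rule applied to the replicate 1 libraries alone it found 73 genes in the first direction, and with replicate 2 alone 92; the 33 shared genes were 45.2% and 35.9% of those lists. In the second direction the lists held 81 and 141 genes, and the 39 shared ones were 48.1% and 27.7%. The Col6-3 NF libraries were the least alike of any group: chi-square, divided by its degrees of freedom, was 36.1 between their counts and 5.22 to 10.1 within other groups. Without Col6-3 NF replicate 1 the rule found 60 and 105 genes, of which 43 and 77 were members, and without replicate 2 it found 77 and 99, of which 55 and 67 were members. Without MORF2OX NF replicate 1 it found 102 and 153 genes, of which 72 and 104 were members. In every one of the 10 such repeats, 28 of the 78 and 39 of the 110 were found. Just inside the limit lay AT5G19730, a pectin lyase-like gene with means of 7.02 CPM in gun1-9 NF, 2.49 CPM in MORF2OX NF and 3.48 CPM in Col6-3 NF, and GAPC1, described below. Just outside it lay the calcium sensor gene CBL9, with 10.8 CPM in gun1-9 NF, 5.36 CPM in MORF2OX NF and 7.73 CPM in Col6-3 NF, and AT1G32415. In the second direction NDL3, with 9.08 CPM in gun1-9 NF, 24.3 CPM in MORF2OX NF and 12.7 CPM in Col6-3 NF, and GASA6 lay just inside. The polyubiquitin gene UBQ3, with 1765 CPM in gun1-9 NF, 3791 CPM in MORF2OX NF and 2715 CPM in Col6-3 NF, and AT1G53785 lay just outside.

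**Figure D2:**
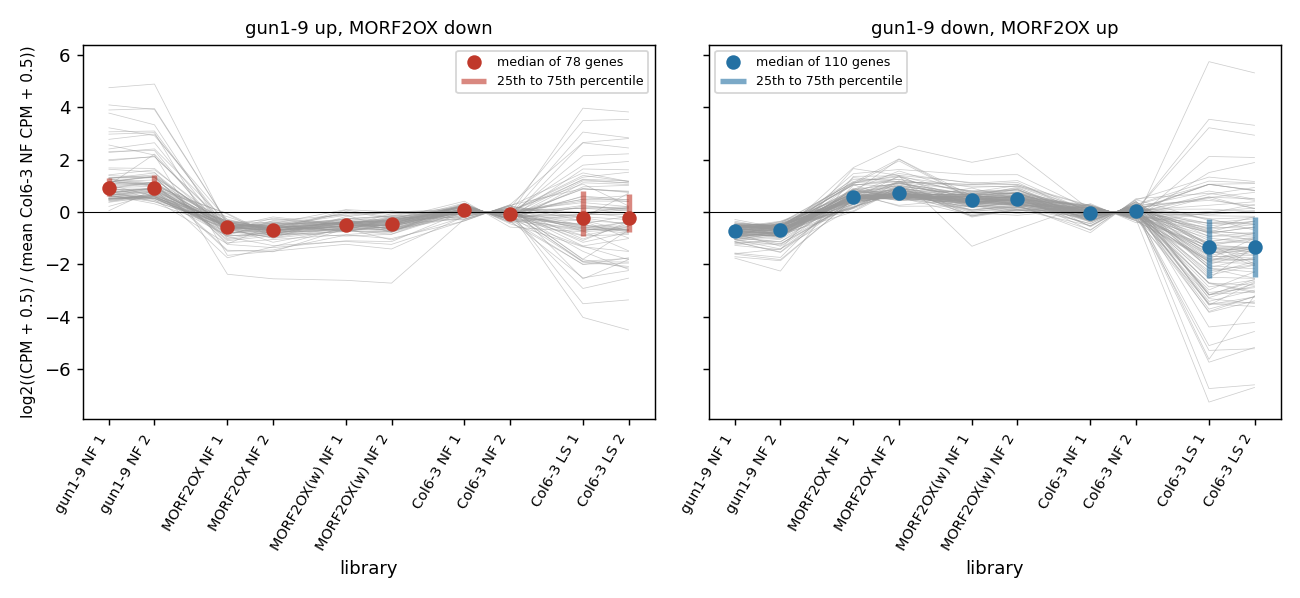
Level of each member in each library, as log2((CPM + 0.5) / (mean Col6-3 NF CPM + 0.5)), for the 78 genes higher in gun1-9 (left) and the 110 lower in gun1-9 (right); grey lines are genes, points are medians and bars run between the 25th and 75th percentiles. The MORF2OX(w) medians lie on the MORF2OX side of Col6-3 NF in both panels, and Col6-3 LS spreads most widely.

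Genes for mitochondrial proteins described here are 9 of the 78 genes higher in gun1-9 and lower in MORF2OX. Like the other groups below that are not called lists, they were picked after their values were seen, and the share of such genes among all eligible genes was not counted. HSP23.6-MITO, a small heat shock protein that acts as a chaperone in the mitochondrial matrix, had 16.9 and 17.6 CPM in gun1-9 NF, 0.198 and 0.280 CPM in MORF2OX NF, 0.438 and 0.327 CPM in MORF2OX(w) NF, 1.46 and 1.96 CPM in Col6-3 NF, and 0.125 and 0 CPM in Col6-3 LS. Its gun1-9 libraries stood far above all others, and those of both overexpression lines lay below Col6-3 NF. In MORF2OX(w) NF it fell relative to Col6-3 NF by 2.14 on the log2 scale (SE 0.36, edgeR adjusted p = 0.00334), a call lost without MORF2OX(w) replicate 2 (edgeR adjusted p = 0.0522). The Col6-3 NF libraries behind this and every later test that uses Col6-3 NF also chose the members, so such a difference is not independent of the choice.

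AT5G51440, which encodes the related mitochondrial chaperone, had 126 and 117 CPM in gun1-9 NF, 16.8 and 15.4 CPM in MORF2OX NF, 18.5 and 18.1 CPM in MORF2OX(w) NF, 40.8 and 39.9 CPM in Col6-3 NF, and 2.00 and 1.29 CPM in Col6-3 LS. No groups overlapped, and MORF2OX and MORF2OX(w) lay close together. It fell by 1.14 in MORF2OX(w) NF relative to Col6-3 NF (log2, SE 0.12, edgeR adjusted p = 0.000301) and rose by 4.63 in Col6-3 NF relative to Col6-3 LS (SE 0.17, edgeR adjusted p = 1.18e-09).

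AOX1A, the alternative oxidase that passes electrons from ubiquinone to oxygen and bypasses the cytochrome pathway, had 177 and 200 CPM in gun1-9 NF, 34.6 and 37.8 CPM in MORF2OX NF, 43.0 and 47.1 CPM in MORF2OX(w) NF, 82.3 and 75.7 CPM in Col6-3 NF, and 52.5 and 48.1 CPM in Col6-3 LS. Every library of the overexpression lines lay below the untreated wild type ones by CPM. AOX1A fell by 0.81 in MORF2OX(w) NF relative to Col6-3 NF (log2, SE 0.12, edgeR adjusted p = 0.00143). Relative to Col6-3 LS, its difference in MORF2OX(w) NF was -0.16 (SE 0.12, edgeR adjusted p = 0.253), while in Col6-3 NF it rose by 0.65 (SE 0.12, edgeR adjusted p = 0.000366).

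AT5G09570, a small protein of the Cox19-like CHCH family, had 7.52 and 6.02 CPM in gun1-9 NF, against 0.0400 to 0.429 CPM in the 8 other libraries. Its gun1-9 libraries thus stood apart from all others. The other levels lay near the counting floor, so its lower level in MORF2OX NF than in Col6-3 NF rests on few reads. AT3G58150 had 10.6 and 9.54 CPM in gun1-9 NF, 1.19 and 1.12 CPM in MORF2OX NF, 2.51 and 2.29 CPM in MORF2OX(w) NF, 5.10 and 3.21 CPM in Col6-3 NF, and 0.312 and 0.484 CPM in Col6-3 LS; it overlaps AT3G58160 on the opposite strand, so its counts are uncertain. The remaining genes of the group had smaller ratios. The outer membrane channel VDAC3 had 420 and 435 CPM in gun1-9 NF, 131 and 134 CPM in MORF2OX NF, and 239 and 170 CPM in Col6-3 NF. Ratios of gun1-9 NF to Col6-3 NF were 1.53 for the malate dehydrogenase mMDH1, 1.47 for cytochrome c (CYTC-2) and 1.47 for AT4G27585, a membrane protein of the prohibitin and stomatin domain family, and those of MORF2OX NF were 0.700, 0.681 and 0.585. CYTC-2 fell by 0.64 in MORF2OX(w) NF relative to Col6-3 NF (log2, edgeR adjusted p = 0.00734). Of the 9 genes, 8 had a MORF2OX(w) mean between those of MORF2OX and Col6-3 NF, as had 64 of all 78. The rule set the MORF2OX and Col6-3 NF means apart, and the share among all eligible genes was not counted, so nothing is read from these counts. AT2G07698 and AT2G07717, also members, lie where chromosome 2 carries near-identical copies of mitochondrial DNA, so their counts are uncertain.

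Of the mitochondrial dysfunction list, 15 genes tested were no members. Of these, 5 were called higher and 0 lower (also 0 at an unadjusted p under 0.05 and by DESeq2) in gun1-9 NF relative to Col6-3 NF, against 21.1% and 23.0% of all genes tested by edgeR. In MORF2OX NF 2 of the 15 were higher and 4 lower than in Col6-3 NF (16.8% and 15.7%). In MORF2OX(w) NF 1 was higher and 4 were lower (7.53% and 4.96%), and the median log2 fold change of the 15 there was -0.25, against -0.01 over all genes tested. In Col6-3 NF 11 of the 15 rose and 1 fell relative to Col6-3 LS (35.0% and 31.1%; edgeR, adjusted p under 0.05). The transcription factor gene ANAC013 (NAC13), which binds the motif, averaged 61.3 CPM in gun1-9 NF, 24.4 CPM in MORF2OX NF, 34.4 CPM in MORF2OX(w) NF, 48.2 CPM in Col6-3 NF and 17.7 CPM in Col6-3 LS and was no member. ANAC017 (NAC017), which acts above it, averaged 79.0 CPM in gun1-9 NF, 76.7 CPM in MORF2OX NF, 80.1 CPM in MORF2OX(w) NF, 63.1 CPM in Col6-3 NF and 47.0 CPM in Col6-3 LS.

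Several members encode enzymes that attach sugar or glutathione to small molecules. UGT74E2, a glucosyltransferase of the auxin indole-3-butyric acid, had 173 and 190 CPM in gun1-9 NF, 3.89 and 3.44 CPM in MORF2OX NF, 3.54 and 4.86 CPM in MORF2OX(w) NF, 5.66 and 6.2 CPM in Col6-3 NF, and 13 and 7.04 CPM in Col6-3 LS. Its ratio in gun1-9 NF, 30.6, was the highest among the members, while its difference between MORF2OX(w) NF and Col6-3 NF did not pass the test (log2 -0.51, SE 0.25, edgeR adjusted p = 0.200). DOGT1, a glucosyltransferase of brassinosteroids and of the fungal toxin deoxynivalenol, had 244 and 287 CPM in gun1-9 NF, 25.9 and 25.9 CPM in MORF2OX NF, 23.8 and 24.9 CPM in MORF2OX(w) NF, and 46.0 and 44.8 CPM in Col6-3 NF. It fell by 0.90 in MORF2OX(w) NF relative to Col6-3 NF (log2, edgeR adjusted p = 0.000768). UGT73C1, a near copy in the same gene cluster, had a ratio of 16.4 in gun1-9 NF and 0.665 in MORF2OX NF, and reads could have been split between the copies. The glutathione transferase genes GSTU4 and ERD9, 2 of 28 on a list of tau class members, had ratios of 1.93 and 1.79 in gun1-9 NF and 0.589 and 0.659 in MORF2OX NF. Of the 21 other genes tested on that list, 5 were higher and 5 lower in gun1-9 NF than in Col6-3 NF (21.1% and 23.0% of all genes tested), and 3 were higher and 7 lower in MORF2OX NF (16.8% and 15.7%).

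Iron, sulfur and peroxide were represented by 4 genes. FER3, a plastid ferritin that stores iron, had 263 and 303 CPM in gun1-9 NF, 26.1 and 21.3 CPM in MORF2OX NF, 28.5 and 32.2 CPM in MORF2OX(w) NF, 43.2 and 32.8 CPM in Col6-3 NF, and 70.8 and 64.0 CPM in Col6-3 LS. NAS3, which makes the metal chelator nicotianamine, had 29.7 and 32.1 CPM in gun1-9 NF, 4.92 and 4.52 CPM in MORF2OX NF, and 6.60 and 7.49 CPM in Col6-3 NF. In both genes the gun1-9 libraries stood far above the rest, and the MORF2OX libraries lay a little below Col6-3 NF. APX1, the cytosolic ascorbate peroxidase, had 1075 and 1246 CPM in gun1-9 NF, 338 and 313 CPM in MORF2OX NF, 360 and 366 CPM in MORF2OX(w) NF, 525 and 437 CPM in Col6-3 NF, and 574 and 503 CPM in Col6-3 LS. APR3, an enzyme of sulfate reduction, had its highest level in untreated wild type, with 26.1 and 30.3 CPM in gun1-9 NF, 6.23 and 5.93 CPM in MORF2OX NF, 11 and 9.86 CPM in Col6-3 NF and 171 and 155 CPM in Col6-3 LS, and it overlaps AT4G21980 on the opposite strand. FER3 and APR3 were the only members on lists of 24 iron and 8 sulfate genes. Of the 20 other iron genes tested, 6 were higher in gun1-9 NF than in Col6-3 NF (21.1% of all genes tested). In MORF2OX NF 5 of them were higher (16.8%), unlike FER3. Their median log2 fold changes were 0.16 and 0.32, against -0.08 and -0.02 over all genes tested. For the 5 other sulfate genes tested the medians were 0.07 in gun1-9 NF and -0.82 in MORF2OX NF, where 1 was lower (15.7%).

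**Figure D3:**
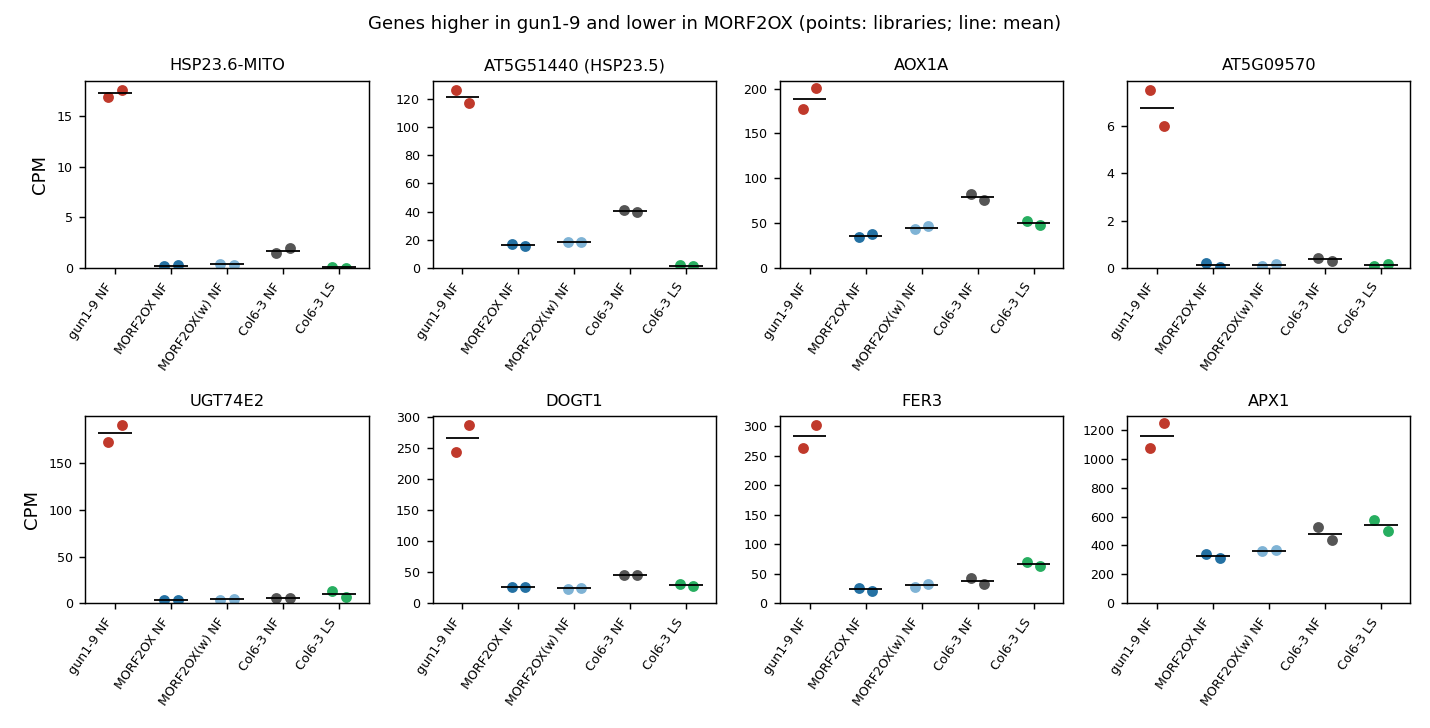
CPM of 8 genes higher in gun1-9 and lower in MORF2OX, by group; points are the 2 libraries of a group and lines their mean, on linear axes from 0. In all 8 panels the gun1-9 libraries are the highest of the norflurazon libraries and the MORF2OX libraries lie below Col6-3 NF.

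Of the heat shock list, 20 genes tested were no members. In gun1-9 NF 17 of them were higher and 0 lower than in Col6-3 NF by edgeR (also 0 at an unadjusted p under 0.05 and by DESeq2), against 21.1% and 23.0% of all genes tested, with a median log2 fold change of 3.59 against -0.08. In MORF2OX NF 5 of the 20 were higher (16.8% of all genes tested), with a median of 0.27 against -0.02. The list held 3 members, the 2 mitochondrial chaperones above and AT1G53540, a cytosolic small heat shock protein, with 16.4 and 11.9 CPM in gun1-9 NF, 0.159 and 0.480 CPM in MORF2OX NF, and 0.686 and 0.775 CPM in Col6-3 NF. Protein turnover was otherwise represented by AtCDC48B, an AAA ATPase, with ratios of 1.5 in gun1-9 NF and 0.616 in MORF2OX NF, by the proteasome subunit genes AT3G26340 (1.47 and 0.602) and AT5G20000 (1.71 and 0.699), and by the folding factors AT1G01940 and AT1G56300.

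Cytosolic sugar breakdown gave 4 members. GAPC1, the cytosolic glyceraldehyde-3-phosphate dehydrogenase, had 697 and 810 CPM in gun1-9 NF, 316 and 289 CPM in MORF2OX NF and 402 and 446 CPM in Col6-3 NF. The phosphoglycerate mutase iPGAM2 had 354 and 404 CPM in gun1-9 NF, 93.8 and 88.6 CPM in MORF2OX NF, and 131 and 132 CPM in Col6-3 NF. The pyruvate kinase AT5G56350 had ratios of 1.48 and 0.547, and the pyruvate decarboxylase AT4G33070, the only member on a list of 13 hypoxia genes, 2.87 and 0.623 in gun1-9 NF and MORF2OX NF.

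Besides FER3, 4 further genes for plastid proteins are described, and all 4 fell in Col6-3 NF relative to Col6-3 LS, as did 31.1% of all genes tested (edgeR, adjusted p under 0.05). They were FTSZ1-1, which forms the ring of plastid division, CIA2, a transcription factor that promotes chloroplast protein import, the envelope channel OEP16-1 and the starch phosphatase LSF2. CIA2 had 37.4 and 32.6 CPM in gun1-9 NF, 14.2 and 11.1 CPM in MORF2OX NF, 13.6 and 12.4 CPM in MORF2OX(w) NF, 24.8 and 20.7 CPM in Col6-3 NF, and 54.9 and 52.4 CPM in Col6-3 LS. It fell by 0.80 in MORF2OX(w) NF relative to Col6-3 NF (log2, edgeR adjusted p = 0.00572).

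AT3G01345, which encodes an uncharacterised protein, had 80.9 and 61.7 CPM in gun1-9 NF, 2.14 and 1.84 CPM in MORF2OX NF, 1.75 and 1.59 CPM in MORF2OX(w) NF, 10.9 and 15.7 CPM in Col6-3 NF, and 11.2 and 22.2 CPM in Col6-3 LS. It fell by 2.99 in MORF2OX(w) NF relative to Col6-3 NF (log2, SE 0.34, edgeR adjusted p = 0.000345) and by 3.32 relative to Col6-3 LS (SE 0.34, edgeR adjusted p = 3.78e-06), and no library of either overexpression line reached the lowest wild type one. TIL, a lipocalin that protects membranes in heat, had 893 and 881 CPM in gun1-9 NF, 175 and 184 CPM in MORF2OX NF, and 342 and 213 CPM in Col6-3 NF, and it overlaps AT5G58060 on the opposite strand. AGC2-1 (OXI1), a kinase of oxidative burst signalling, had 9.20 and 7.82 CPM in gun1-9 NF, 1.59 and 1.16 CPM in MORF2OX NF, 2.70 and 4.39 CPM in Col6-3 NF, and 0.187 and 0.645 CPM in Col6-3 LS. Also named by their ratios were AT1G73120, AT2G35480, IMS2, EXPA10 (an expansin) and AT5G24640, with ratios of 1.90 to 2.70 in gun1-9 NF and 0.273 to 0.695 in MORF2OX NF.

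Among the 110 genes lower in gun1-9 and higher in MORF2OX was GUN1 itself. It had 154 and 147 CPM in gun1-9 NF, 417 and 469 CPM in MORF2OX NF, 342 and 369 CPM in MORF2OX(w) NF, 196 and 294 CPM in Col6-3 NF, and 510 and 436 CPM in Col6-3 LS. The Col6-3 NF libraries lay wide apart, both above gun1-9 and below MORF2OX(w), and the MORF2OX libraries overlapped those of untreated wild type. Since gun1-9 is a mutant of this gene, its count there cannot be read as for the other members.

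Genes of carbon starvation and of amino acid, lipid and sugar turnover made up a set of 9. SEN1 (DIN1), a marker of darkness and senescence, had 421 and 418 CPM in gun1-9 NF, 1382 and 1553 CPM in MORF2OX NF, 1180 and 1223 CPM in MORF2OX(w) NF, 717 and 509 CPM in Col6-3 NF, and 53.2 and 49.7 CPM in Col6-3 LS. It rose by 0.97 in MORF2OX(w) NF relative to Col6-3 NF (log2, SE 0.15, edgeR adjusted p = 0.00239), a call not made with only those 4 libraries (edgeR adjusted p = 0.0612). BCAT-2, a mitochondrial enzyme that breaks down branched-chain amino acids, had 146 and 150 CPM in gun1-9 NF, 502 and 645 CPM in MORF2OX NF, 497 and 535 CPM in MORF2OX(w) NF, 231 and 234 CPM in Col6-3 NF, and 6.24 and 9.30 CPM in Col6-3 LS. It rose by 1.15 in MORF2OX(w) NF relative to Col6-3 NF (log2, SE 0.16, edgeR adjusted p = 0.00117) and by 4.89 in Col6-3 NF relative to Col6-3 LS (SE 0.20, edgeR adjusted p = 2.18e-09). In both genes every norflurazon library lay well above the untreated ones, with gun1-9 the lowest and MORF2OX the highest; BCAT-2 overlaps AT1G10090 on the opposite strand.

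AGT3, an aminotransferase gene, had 189 and 198 CPM in gun1-9 NF, 618 and 750 CPM in MORF2OX NF, 545 and 575 CPM in MORF2OX(w) NF, 375 and 320 CPM in Col6-3 NF, and 8.37 and 8.77 CPM in Col6-3 LS. It rose by 0.69 in MORF2OX(w) NF relative to Col6-3 NF (log2, edgeR adjusted p = 0.00607). ICL, isocitrate lyase of the glyoxylate cycle that turns stored oil into sugar, had 326 and 327 CPM in gun1-9 NF, 744 and 919 CPM in MORF2OX NF, 801 and 896 CPM in MORF2OX(w) NF, 491 and 594 CPM in Col6-3 NF, and 10.4 and 58.6 CPM in Col6-3 LS. The lysine-degrading enzyme gene AT4G33150, the vacuolar invertase ATBETAFRUCT4, the amino acid sensor-like ACR9, the amidotransferase-like GAT1_2.1 and the glutathione-degrading GGT1 completed the set, with ratios of 0.512 to 0.709 in gun1-9 NF and 1.52 to 2.47 in MORF2OX NF over all 9. In MORF2OX(w) NF 6 of the 9 rose relative to Col6-3 NF, against 7.53% of all genes tested. In Col6-3 NF 8 rose and 1 fell relative to Col6-3 LS, against 35.0% and 31.1% (edgeR, adjusted p under 0.05).

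The sugar starvation list holds 8 genes besides SEN1 and BCAT-2, which the rule chose for being lower in gun1-9. All 8 were called higher in MORF2OX NF than in Col6-3 NF (16.8% of all genes tested), with a median log2 fold change of 0.83, against -0.02 over all genes tested. In gun1-9 NF 5 of the 8 were higher (21.1%), with a median of 0.39, against -0.08. In MORF2OX(w) NF 7 of the 8 rose relative to Col6-3 NF (7.53%), and all 8 rose in Col6-3 NF relative to Col6-3 LS (35.0%; edgeR, adjusted p under 0.05). ASN1 (DIN6), the dark-induced asparagine synthetase on the same list, averaged 860 CPM in gun1-9 NF, 2149 CPM in MORF2OX NF and 471 CPM in Col6-3 NF, and was higher in both lines.

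Immune receptors and signalling gave 8 members. CBP60G, a transcription factor that activates salicylic acid synthesis, had 20.0 and 22.6 CPM in gun1-9 NF, 55.7 and 103 CPM in MORF2OX NF, 46.2 and 57.5 CPM in MORF2OX(w) NF, 27 and 51.4 CPM in Col6-3 NF, and 3.5 and 3.01 CPM in Col6-3 LS. Its replicates differed by nearly as much as the groups on norflurazon, except that gun1-9 lay below all the others. AT4G19520, a resistance protein of the TIR class, had 46.3 and 45.4 CPM in gun1-9 NF, 176 and 325 CPM in MORF2OX NF, 119 and 155 CPM in MORF2OX(w) NF, 56.1 and 111 CPM in Col6-3 NF, and 19.7 and 18.1 CPM in Col6-3 LS. The others were the kinase MPK3, the nudix hydrolase NUDT7 that restrains defence, the receptor kinases CRK28 and WAKL2, the TIR class gene AT4G16960 and the peptide hormone precursor PSK4. All 8 rose in Col6-3 NF relative to Col6-3 LS, as did 35.0% of all genes tested (edgeR, adjusted p under 0.05). None of these 8 is among the 13 genes of the salicylate and defence list, which held no member. Of the 8 genes tested on that list, 2 rose and 5 fell in Col6-3 NF relative to Col6-3 LS (35.0% and 31.1% of all genes tested). Their median log2 fold change there was -1.41, against 0.07 over all genes tested. In MORF2OX NF 1 was called higher than in Col6-3 NF (16.8% of all genes tested), with a median of -0.04, against -0.02.

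Of 12 transcription factor genes, 6 rose in MORF2OX(w) NF relative to Col6-3 NF, against 7.53% of all genes tested. In Col6-3 NF 8 rose and 1 fell relative to Col6-3 LS, against 35.0% and 31.1% (edgeR, adjusted p under 0.05). PI (PISTILLATA), a MADS-box gene that specifies petals and stamens, had 5.15 and 4.77 CPM in gun1-9 NF, 30.2 and 53.9 CPM in MORF2OX NF, 34.8 and 43.8 CPM in MORF2OX(w) NF, 9.43 and 8.49 CPM in Col6-3 NF, and 0.937 and 0.860 CPM in Col6-3 LS. Its ratio in MORF2OX NF, 4.69, was the highest in that line among the 110, and it rose by 2.13 in MORF2OX(w) NF relative to Col6-3 NF (log2, SE 0.23, edgeR adjusted p = 0.000290). EBP, an ethylene response factor also known as RAP2.3, had 173 and 150 CPM in gun1-9 NF, 742 and 766 CPM in MORF2OX NF, 708 and 731 CPM in MORF2OX(w) NF, and 407 and 656 CPM in Col6-3 NF. NAC6 (ORE1), a promoter of leaf senescence, had 7.62 and 5.63 CPM in gun1-9 NF, 25 and 29.3 CPM in MORF2OX NF, 30.8 and 28.4 CPM in MORF2OX(w) NF, and 17.4 and 17.5 CPM in Col6-3 NF, and rose by 0.77 in MORF2OX(w) NF (log2, edgeR adjusted p = 0.00719). BZS1, a B-box protein of light and brassinosteroid signalling, rose by 0.77 there as well (edgeR adjusted p = 0.00606). HB-12, WRI4, ERF8, WRKY26, GATA6, DEAR3, AT1G76590 and BZIP9 completed the group.

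**Figure D4:**
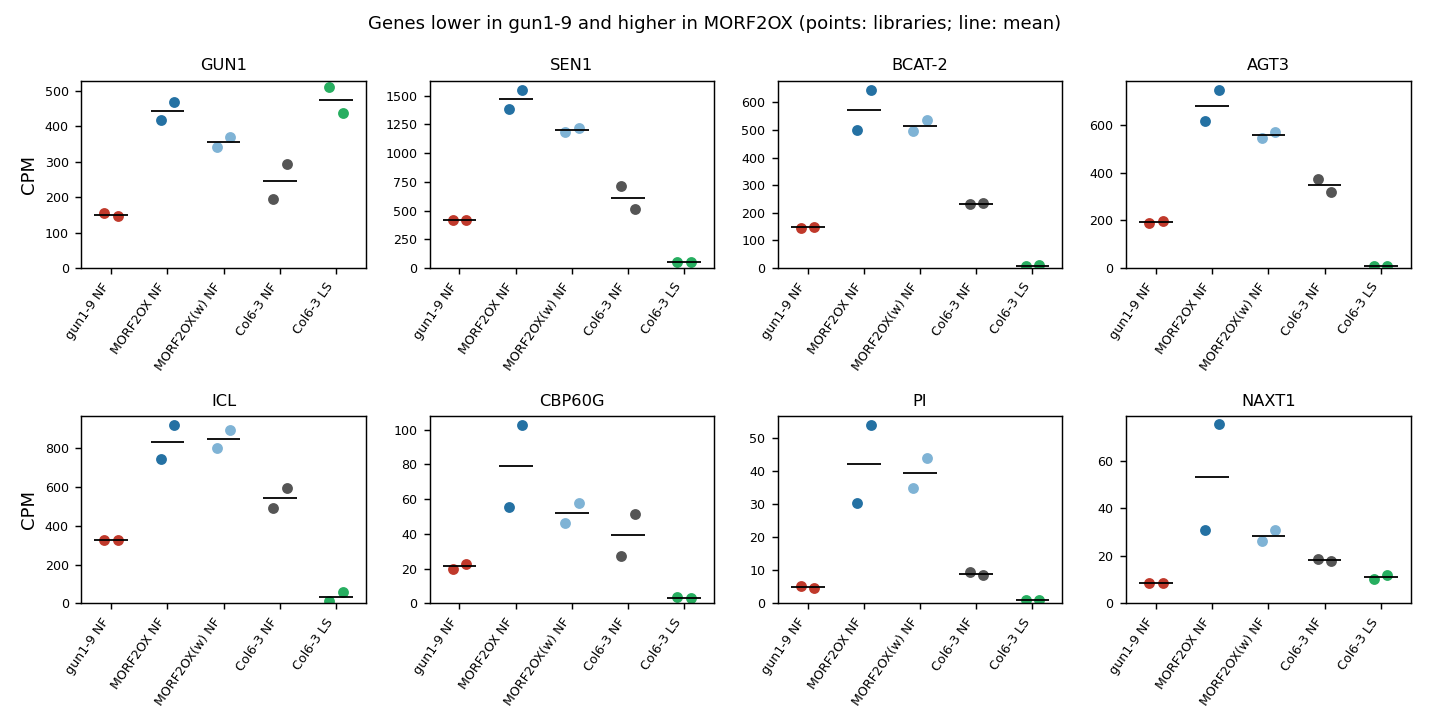
CPM of 8 genes lower in gun1-9 and higher in MORF2OX, by group; points are the 2 libraries of a group and lines their mean, on linear axes from 0. In all 8 panels gun1-9 is the lowest and MORF2OX or MORF2OX(w) the highest of the norflurazon groups, and GUN1 is the one shown whose untreated level is the highest.

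Further members bore on growth and transport. The cell wall enzyme XTR6 had 88.8 and 101 CPM in gun1-9 NF, 302 and 521 CPM in MORF2OX NF, 239 and 299 CPM in Col6-3 NF, and 2.00 and 2.26 CPM in Col6-3 LS, with a log2 difference between MORF2OX(w) NF and Col6-3 NF that did not pass the test (0.02, SE 0.22, edgeR adjusted p = 0.971). DELTA-TIP, a water channel of the vacuole, had 347 and 361 CPM in gun1-9 NF, 1078 and 1181 CPM in MORF2OX NF, 1047 and 1034 CPM in MORF2OX(w) NF, 512 and 542 CPM in Col6-3 NF, and 1095 and 933 CPM in Col6-3 LS, so the overexpression lines lay near the untreated level. It rose by 0.98 in MORF2OX(w) NF relative to Col6-3 NF (log2, SE 0.12, edgeR adjusted p = 0.000595). It overlaps AT3G16250 on the opposite strand. NAXT1, a nitrate exporter, had 8.51 and 8.77 CPM in gun1-9 NF, 30.9 and 75.3 CPM in MORF2OX NF and 18.7 and 17.7 CPM in Col6-3 NF. It adjoins the member MPK3 on the same strand. The auxin importer LAX1, the ethylene synthesis enzyme ACS11, the auxin response repressor ATAUX2-11 and the gibberellin-regulated GASA6 had ratios of 0.572 to 0.711 in gun1-9 NF and 1.46 to 3.25 in MORF2OX NF.

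Of the remaining genes named from the 110, AT1G66100, AT5G47590 and AT2G01422 were nearly silent in gun1-9. AT1G66100, a thionin (small antimicrobial peptide), had 0.346 and 0.258 CPM in gun1-9 NF, 5.99 and 4.92 CPM in MORF2OX NF, 3.98 and 3.74 CPM in MORF2OX(w) NF, 1.93 and 1.18 CPM in Col6-3 NF, and 110 and 81.5 CPM in Col6-3 LS. AT5G47590, an HSP20-like gene, had 0.544 and 0.430 CPM in gun1-9 NF, 5.79 and 6.89 CPM in MORF2OX NF, 4.77 and 5.75 CPM in MORF2OX(w) NF, and 2.66 and 2.55 CPM in Col6-3 NF. AT2G01422, a non-coding RNA, had 0.445 and 0.172 CPM in gun1-9 NF and 7.78 and 7.89 CPM in MORF2OX NF, but 0.796 and 1.54 CPM in MORF2OX(w) NF and 3.52 and 1.92 CPM in Col6-3 NF, so the overexpression lines stood on opposite sides of wild type. The ubiquitin ligase gene ATL8 had 9.65 and 9.41 CPM in gun1-9 NF, 51.4 and 57.4 CPM in MORF2OX NF, 49.9 and 49.9 CPM in MORF2OX(w) NF and 19.5 and 17.1 CPM in Col6-3 NF. It rose by 1.45 in MORF2OX(w) NF (log2, SE 0.14, edgeR adjusted p = 0.000144). Also named by the rule were CXIP4, HIS1-3 (a drought-induced linker histone), PMAT2, CLH1 (a chlorophyllase), NDL3, AT1G19530 and AT3G17225, with ratios of 0.427 to 0.714 in gun1-9 NF and 1.42 to 2.49 in MORF2OX NF.

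MORF2OX(w) NF was also compared with Col6-3 LS, groups whose means did not choose the members, and this mixes the line with norflurazon. The fit still estimated its spread from all 5 groups, so the calls are not wholly independent of the choice. Of the 78 genes, 23 were higher and 35 lower, and of the 110, 88 were higher and 12 lower, against 34.1% higher and 32.0% lower among the 20706 genes tested (edgeR, adjusted p under 0.05). As shares, 29.5% of the 78 were higher and 44.9% lower, while 80.0% of the 110 were higher and 10.9% lower. The median log2 fold change was -0.28 over the 78, 1.86 over the 110 and 0.04 over all genes tested. In Col6-3 NF relative to Col6-3 LS, 35 of the 78 rose and 25 fell, and 77 of the 110 rose and 16 fell, against 35.0% and 31.1% of all genes tested. The medians were 0.29, 1.43 and 0.07. The Col6-3 NF libraries also served to choose the members.

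The comparison of MORF2OX(w) NF with Col6-3 NF shares the Col6-3 NF libraries with the choice of members. Since the rule required Col6-3 NF to lie between gun1-9 and MORF2OX, the choice favours the direction of MORF2OX here, and the size of that pull was not measured, so no likeness of the lines is read from these counts. Of the 78 genes 24 fell and 0 rose in MORF2OX(w) NF, and of the 110, 38 rose and 0 fell, against 7.53% higher and 4.96% lower among all genes tested (edgeR, adjusted p under 0.05). At an unadjusted p under 0.05, and likewise by DESeq2, 0 of the 78 were higher and 1 of the 110 was lower. The median log2 fold changes were -0.52, 0.49 and -0.01. By mean CPM, MORF2OX(w) lay between MORF2OX and Col6-3 NF in 64 of 78 and 97 of 110 genes, at or beyond MORF2OX in 13 and 7, and at or past Col6-3 NF in 1 and 6. These counts moved with single libraries: without Col6-3 NF replicate 2, 48 of the 78 and 69 of the 110 were called, without gun1-9 replicate 1 or 2 15 of the 78 were called, and without MORF2OX(w) replicate 1 or 2 6 and 6 of the 78 and 14 and 9 of the 110 were called.

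**Figure D5:**
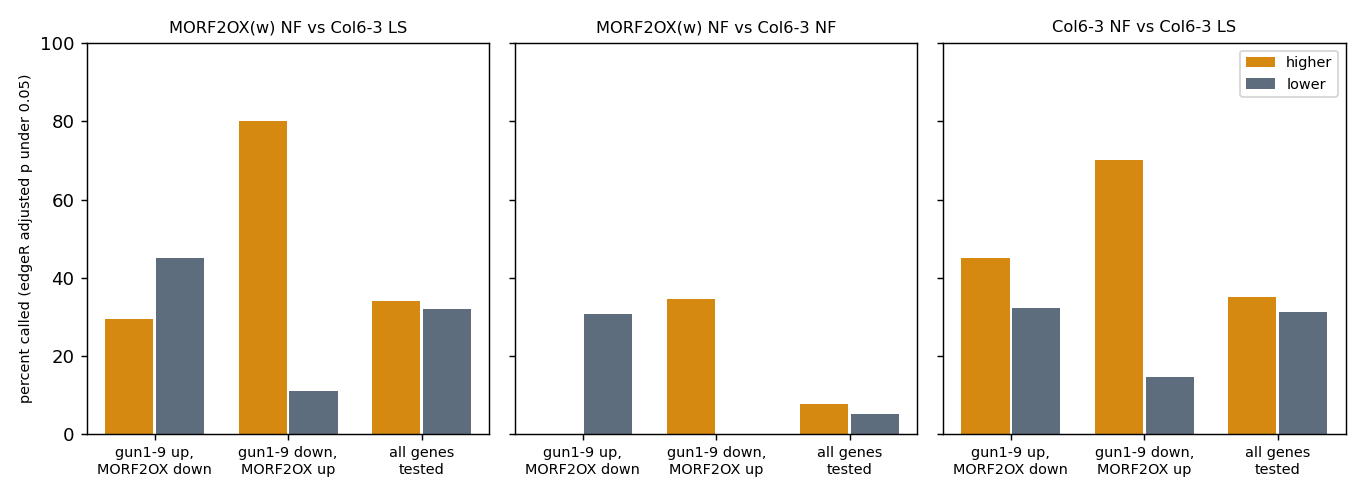
Percent of genes called higher or lower (edgeR adjusted p under 0.05) in 3 comparisons, for the 78 genes higher in gun1-9, the 110 lower in gun1-9 and all 20706 genes tested. Members lower in gun1-9 were more often higher than all genes in each panel (80.0%, 34.5% and 70.0%), and 0 members of the 78 were higher in MORF2OX(w) NF than in Col6-3 NF.

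The untreated level, which the rule did not use, is set here against levels in gun1-9 NF, MORF2OX NF and Col6-3 NF, which it did use. Shares over all eligible genes were not counted, so the values are a description. Among the 110 genes, Col6-3 LS lay at or below gun1-9 NF in 69, between the lines in 30 and at or above MORF2OX NF in 11. Among the 78, Col6-3 LS lay at or above gun1-9 NF in 17, between the lines in 34 and at or below MORF2OX NF in 27. The median log2 ratio to Col6-3 LS, with 0.5 CPM added to each mean, was 1.28 in gun1-9 NF, -0.43 in MORF2OX NF, -0.28 in MORF2OX(w) NF and 0.27 in Col6-3 NF over the 78. Over the 110 it was 0.57 in gun1-9 NF, 2.08 in MORF2OX NF, 1.81 in MORF2OX(w) NF and 1.38 in Col6-3 NF.

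In the contrasts that chose the members, 76 of the 78 were called higher in gun1-9 NF (21.1% of all genes tested) and 61 lower in MORF2OX NF (15.7%), and 99 of the 110 were called lower in gun1-9 NF (23.0%) and 96 higher in MORF2OX NF (16.8%). Calls of opposite sign in both lines were made for 59 of the 78 and 92 of the 110, against 0.555% and 0.956% of all genes tested. Nothing is read from these counts.

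Summed levels of tissue markers moved among the groups as well. The summed level of 11 root markers was 1906 to 2068 CPM in gun1-9 NF, 2334 to 2991 CPM in MORF2OX NF, 3574 to 3726 CPM in MORF2OX(w) NF, 4476 to 4968 CPM in Col6-3 NF and 1781 to 1881 CPM in Col6-3 LS, and all 11 were detected in each group. A sum follows its most abundant markers. Of the 11, 1 was called higher and 2 lower in gun1-9 NF than in Col6-3 NF (edgeR, adjusted p under 0.05). Among all genes tested the shares were 21.1% and 23.0%. Median log2 fold changes of the 11 relative to Col6-3 NF were -0.32 in gun1-9 NF, -0.28 in MORF2OX NF and -0.26 in MORF2OX(w) NF. Over all genes tested they were -0.08, -0.02 and -0.01. The 6 vascular markers summed to 101 to 115 CPM in gun1-9 NF, 121 to 138 CPM in MORF2OX NF, 130 to 149 CPM in MORF2OX(w) NF, 164 to 165 CPM in Col6-3 NF and 256 to 316 CPM in Col6-3 LS. The 4 guard cell markers summed to 35.1 to 39.3 CPM in gun1-9 NF, 52.0 to 55.8 CPM in MORF2OX NF, 51.4 to 53.5 CPM in MORF2OX(w) NF, 48.6 to 50.6 CPM in Col6-3 NF and 84.0 to 88.9 CPM in Col6-3 LS. The 9 seed storage markers summed to 1.14 to 1.16 CPM in gun1-9 NF, 1.15 to 1.36 CPM in MORF2OX NF, with CRU2 at 0, 1.26 to 5.21 CPM in MORF2OX(w) NF, 6.39 to 26.8 CPM in Col6-3 NF and 1.56 to 163 CPM in Col6-3 LS. No marker was a member, and the part of these differences in the results was not tested.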

How the data were processed

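The deposited files hold raw counts of reads per gene, 1 file per library. The submitters' processing notes name, per the labels, HTSeq 0.6.1, Bowtie2 2.3.1, TopHat2 2.1.1, edgeR and the build TAIR10. Per the labels' protocols, a stranded mRNA kit and single-end reads were used. The strand setting of the counting is not given in the sources used here, so genes overlapping another on the opposite strand (15 of 78 and 22 of 110 members) are uncertain. Total counts were 19018594 to 25220815 per library. Of 33602 genes listed, 32835 matched the TAIR10.1 annotation of RefSeq.

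From the deposited counts, CPM were computed with TMM factors over all genes (0.762 to 1.23), and the rule was applied to group means. Tests used edgeR 4.0.16 in R 4.3.3 (quasi-likelihood F test, filterByExpr, 5 group means in 1 fit, Benjamini-Hochberg adjustment over 20706 genes tested, threshold 0.05). Fold changes are the fitted log2 values, and SE is their size divided by the square root of F. Alternatives were RLE factors, DESeq2 1.42.0, no filter, fits of the 4 libraries compared, a replicate block, each library left out, fold limits of 1.3 and 1.6, and CPM minimums of 2 and 10.

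The members and the 22 gene lists were chosen with earlier results of these data known. The lists, with 294 genes, include root, guard cell, vascular and seed storage markers; 15 of them held no member: unfolded protein response, copper, flavonoid, jasmonate, salicylate, abscisic acid, auxin, phosphate, nitrate, clock, glucosinolate and the 4 marker lists. Named by rule, per direction, were the 12 members with the largest smaller ratio, list members, the 4 with the highest CPM on norflurazon, the 3 largest called folds each way in each tested comparison, and the genes nearest the limit. Genes outside this rule were chosen after their values were seen. The labels do not say whether replicates were grown apart, so p-values may measure technical spread.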

Additional observations from a re-analysis of the deposited data

How the results depend on the processing

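At a fold limit of 1.3 the rule found 148 and 220 genes, and at 1.6 it found 28 and 32. With each library left out in turn it found 60 to 102 and 89 to 153. Among the 78 and 110 members, the fits without a library called 53 to 59 and 85 to 95 in Col6-3 NF against Col6-3 LS, 45 to 65 and 93 to 101 in MORF2OX(w) NF against Col6-3 LS, and 6 to 48 and 9 to 69 in MORF2OX(w) NF against Col6-3 NF. In the contrasts that chose the members they called 58 to 76 and 56 to 99 in gun1-9 NF, and 27 to 61 and 46 to 103 in MORF2OX NF. With no filter on low counts, 41 and 66 were called in MORF2OX(w) NF against Col6-3 NF. With only the 4 libraries compared, 5 and 7 were called there and 22 and 41 in MORF2OX NF against Col6-3 NF. The cause of these shifts was not tested. Same-numbered replicates deviated together with correlations of -0.138 to 0.144, with 3 of 10 over 0.1, so the numbers were not taken to pair the samples. With the replicate block, 57 and 99 members were called in MORF2OX(w) NF against Col6-3 LS, 27 and 44 in MORF2OX(w) NF against Col6-3 NF, 60 and 95 in Col6-3 NF against Col6-3 LS, 75 and 102 in gun1-9 NF and 59 and 99 in MORF2OX NF. Calls of single named genes were lost 74 times in the fits without a library, 16 times with only the 4 libraries compared and 4 times with DESeq2, and none changed sign. Those lost in MORF2OX(w) NF against Col6-3 NF with only the 4 libraries compared include SEN1, and groups of 2 limit what every test here can show.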

Other observations

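Among eligible genes in chromosome order, 4 pairs of neighbours were both members. Of these, 3 pairs moved the same way: AT1G19530 and AT1G19540 (lower in gun1-9), MPK3 and NAXT1 (lower in gun1-9), and UGT73C1 and DOGT1 (higher in gun1-9). The fourth pair moved in opposite directions. OEP16-1 (chromosome 2, 12414108 to 12415661, TAIR10.1) was higher in gun1-9 and CXIP4 (12415668 to 12417615) lower, and both lie on the minus strand, end to end. OEP16-1 had 21.2 and 24.7 CPM in gun1-9 NF, 10.8 and 9.69 CPM in MORF2OX NF, and 18.8 and 13.8 CPM in Col6-3 NF. CXIP4 had 322 and 324 CPM in gun1-9 NF, 969 and 1182 CPM in MORF2OX NF, and 750 and 763 CPM in Col6-3 NF. MPK3 (chromosome 3, 16756571 to 16758874) and NAXT1 (16758877 to 16761430) also adjoin, both on the plus strand. How reads between adjoining genes were assigned was not tested in either pair.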
